A study of Mus musculus with 18 samples.

Results

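The genes described here are 32 genes of the unfolded protein response and of protein folding in the endoplasmic reticulum (ER), taken by gene symbol from a named list, out of 18397 genes in the expression table. All 32 were in the table and 31 had enough reads to be tested. The exception was Derl3, a derlin of ER-associated degradation, which had 0 counts in 12 of 18 libraries and at most 1 count (0.11 TPM) in the others. The study sequenced poly(A) RNA of cells kept on a stiff or a soft matrix, in 6 groups of 3 libraries each. These were Stiff-TW and Soft-TW, Stiff+mito and Soft+mito, and the plain groups Stiff and Soft. Below, "with TW" and "with mito" only name the groups so labelled, and "without addition" or "alone" the plain groups. The series title concerns a stiffness-dependent transfer of mitochondria, but the labels spell out neither mito nor TW and give no stiffness, dose or time. All 18 libraries carry the label RAW264.7, a macrophage-like cell line from a mouse tumour induced by Abelson virus, with no genotype, transgene or other agent named. The labels call the 3 libraries of a group biosamples, and whether they were separate cultures is not given, so the p-values reflect no more than how far these libraries varied, which may be technical.

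Proteins that enter the ER are folded there by chaperones of the HSP70 and HSP90 kind, by lectins that bind glycans, and by disulfide isomerases. When unfolded proteins build up, 3 sensors in the ER membrane respond: IRE1, which removes a short stretch from the Xbp1 mRNA, ATF6, which is cut to release a transcription factor, and PERK, which slows translation and favours Atf4. The spliced Xbp1 product and ATF6 raise transcription of chaperones and of the machinery that exports failed proteins for degradation, in part through a promoter motif called the ER stress response element (ERSE).

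The ERSE motif is shown first because it is the textbook link between ER stress sensors and the chaperone genes described here. The motif, CCAAT and CCACG with 9 bases of any kind between them, was searched on both strands in the RefSeq promoters of build GRCm38.p6, from 250 bases before to 50 bases after each start. It occurred in 39 of 32851 promoters (0.119%) and in those of 10 of the 27 members with a promoter in that table, namely Calr, Canx, Creld2, Derl3, Dnajc3, Ero1b, Hsp90b1, Hspa5, Pdia6 and Syvn1. The related ERSE-II motif, ATTGG and CCACG with 1 base of any kind between them, occurred in 12 promoters (0.0365%), among them those of Dnajb11 and Herpud1. A core TGACGTGG, known to bind ATF6 and XBP1, occurred in 222 promoters (0.676%) and in 0 of the members. A match says that these letters stand in the window and no more. The sites of 6 members are printed 5′ to 3′ on the strand of the gene, the motif in capitals and 10 flanking bases on each side in lower case. The first 4 belong to genes that rose with TW on the stiff matrix, the next to a gene that fell, and the last is an ERSE-II match. The positions are chr2:34772015-34772053 (+ strand) for Hspa5, chr10:86705628-86705666 (- strand) for the upstream of a pair of Hsp90b1 matches, chr8:84847065-84847103 (- strand) for Calr, chr13:12565672-12565710 (+ strand) for Ero1b, chr11:50325790-50325828 (- strand) for Canx and chr8:94386367-94386397 (+ strand) for Herpud1. In Calr and Ero1b the motif lies in reverse, and so reads CGTGG first.
Hspa5: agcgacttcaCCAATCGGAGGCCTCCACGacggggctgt
Hsp90b1: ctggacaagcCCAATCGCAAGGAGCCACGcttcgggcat
Calr: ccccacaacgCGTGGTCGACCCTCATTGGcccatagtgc
Ero1b: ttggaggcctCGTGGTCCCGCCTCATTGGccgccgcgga
Canx: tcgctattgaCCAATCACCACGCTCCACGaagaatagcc
Herpud1: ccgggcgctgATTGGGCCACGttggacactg

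The stretch of Xbp1 that IRE1 removes is shown because the 2 forms of the transcript are separate entries in the deposited transcript table. It lies in exon 4 of the gene on build GRCm38 at chr11:5524259-5524324 (+ strand), and the capitals mark the 26 bases removed between the known cutting points in CCGCAGC and CTGCAGC, chr11:5524279-5524304.
Xbp1: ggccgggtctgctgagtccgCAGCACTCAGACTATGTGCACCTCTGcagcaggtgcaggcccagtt

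Totals of estimated counts ran from 16054637 to 16887244 per library. The label RAW264.7 went against the markers. Of 14 macrophage genes, only Lyz2 (12.6 TPM) and Cd14 (27.0 TPM) had a mean of at least 10 TPM and Cd68 reached 15.0 TPM in its highest library, while Adgre1, Ptprc and Csf1r stayed at or under 0.14, 0.27 and 1.10 TPM in every library. Among epithelial genes Krt8 (554 TPM) and Krt18 (270 TPM, from 233 to 319) were abundant, with Epcam and Cdh1 near 0. Of 10 fibroblast genes, Vim (2549 TPM), Fn1 (257 TPM), Pdgfra (41.9 TPM) and Col1a2 (37.1 TPM) had a mean of at least 10 TPM. Col3a1, Pdgfrb and Col1a1 had 8.06, 4.43 and 3.05 TPM, and Dcn, Lum and Thy1 had 0.423, 0.026 and 0.012 TPM. Of 9 plasma cell genes, the cell type best known for this response, only Sdc1 had a mean of at least 10 TPM, and Jchain and Mzb1 stayed at or under 0.11 and 0.16 TPM. The cells are therefore named here only by their group. In bulk RNA, fewer cells of a type and less RNA per cell cannot be told apart. Levels between genes are given in TPM, which is per length, and levels of 1 gene between libraries in CPM (counts scaled to a common library size by TMM). Changes are log2 fold changes ± an approximate standard error. A gene rose or fell where edgeR's quasi-likelihood test gave a Benjamini-Hochberg adjusted p under 0.05 over the 12245 genes tested. Against these CPM, the deposited TPM values shifted the 3 comparisons against Soft by -0.0842 to -0.1101 log2 units at the median gene. Changes of about 0.1 thus depend on the scale. The number of calls that held in every alternative fitted, TPM included, is therefore given beside the counts of members, while the lists of other genes were counted with edgeR alone.

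The most abundant members were the chaperones Hspa5 (mean 1212 TPM over the 18 libraries), Hsp90b1 (1178 TPM) and Calr (971 TPM) and the isomerases Pdia3 (735 TPM) and P4hb (703 TPM), which ranked 135 to 213 of the 18397 genes. The sensors were far lower, Ern1 at 33.4 TPM and Atf6 at 30.7 TPM, and the lowest member tested was the cochaperone gene Dnajc3 at 15.5 TPM. The summed level of the members was 8972 to 9063 TPM in Stiff-TW and 8117 to 8261 TPM in Soft-TW. It was 6734 to 6811 TPM in Stiff+mito and 7291 to 7333 TPM in Soft+mito, against 6878 to 6887 TPM in Stiff and 7531 to 7673 TPM in Soft. The TW libraries were thus the highest on either matrix, and the other 2 conditions had lower sums on the stiff than on the soft matrix. These sums are in TPM and weigh the most abundant members most. At the median gene TPM shifted against CPM by -0.0842 log2 units in Stiff against Soft and by 0.0075 in Stiff+mito against Soft+mito.

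The question of which members followed the matrix was asked in 3 pairs of groups. On the stiff matrix the sensor genes Atf6 and Ern1 were higher, while the 3 cochaperone genes and Calr and P4hb were lower without addition and with mito. With TW, Calr and P4hb were not lower. In Stiff against Soft, 12 members rose and 13 fell, where 53.8% of all genes tested were called, 29.1% higher and 24.7% lower. On the TPM scale 8 rose and 15 fell, with library totals 8 and 16, and in every alternative 8 and 11. In Stiff+mito against Soft+mito, 10 rose and 15 fell, where 63.5% of all genes were called, 32.7% higher and 30.8% lower, and 10 and 13 held in every alternative. In Stiff-TW against Soft-TW, 17 rose and 5 fell, where 54.3% of all genes were called, 27.6% higher and 26.7% lower, and 14 and 4 held. The medians of the members were -0.06, -0.03 and 0.08 log2 units in these 3 comparisons, and those of all genes 0.015, 0.014 and 0.0021. Called in the same direction in all 3 pairs and every alternative were Atf6, Ern1, Herpud1 and Hspa13, which rose, and Dnajb11, Dnajb9 and Selenos, which fell. Marker genes of other cell types also moved with the matrix. Of 7 tested fibroblast genes, 5 rose and 2 fell in Stiff against Soft, Fn1 at 0.99 and Vim at -0.53, 5 rose and 1 fell with mito, and 7 rose with TW. The epithelial genes Krt8 and Krt18 had -0.55 and -0.25 without addition and -0.61 and -0.22 with mito. Of 6 tested macrophage genes, 1 rose and 3 fell without addition, 0 and 2 with mito and 0 and 3 with TW. The part of these markers in the members' changes was not tested.

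The effect of TW was asked on each matrix. On the stiff matrix 11 of the 14 chaperone and oxidative folding genes rose with it, P4hb, Sdf2l1, Hspa5 and Ero1b the most. On the soft matrix 5 of the 9 chaperone genes and 4 of the 5 oxidative folding genes rose. Of these rises 4 held in every alternative, namely P4hb, Ero1b, Hspa5 and Hsp90b1, against all 11 on the stiff matrix. In Stiff-TW against Stiff, 16 members rose and 5 fell, where 69.6% of all genes were called, 35.5% higher and 34.1% lower. The same 16 rises and 5 falls held in every alternative, with 12 falls on the TPM scale and 10 with library totals. In Soft-TW against Soft, 16 rose and 9 fell, where 56.9% of all genes were called, 28.9% higher and 28% lower. On the TPM scale 8 rose and 14 fell, with library totals 12 and 11, and in every alternative 8 and 6. The medians of the members were 0.18 and 0.08 and those of all genes 0.0091 and -0.0037. On both matrices and in every alternative Edem1, Edem2, Ero1b, Hsp90b1, Hspa5, P4hb and Xbp1 rose, and Canx, Dnajb11 and Ern1 fell. P4hb on the stiff matrix was the only member that changed by at least 2-fold in any of the 7 pairs of groups. The summed TPM of the fibroblast list, mostly Vim, was 4717 to 4752 in Stiff-TW and 3283 to 3358 in Soft-TW, against 1792 to 1831 in Stiff and 2358 to 2446 in Soft. That of the 14 macrophage genes was 53.2 to 54.6 TPM in Stiff-TW and 80.4 to 80.8 TPM in Soft-TW, against 31.4 to 35.1 TPM in Stiff and 39.8 to 40.0 TPM in Soft. All 6 tested macrophage genes rose with TW, with medians of 1.70 on the stiff and 1.72 on the soft matrix. Among them Csf1r, Itgam and Mrc1 averaged only 0.258, 0.15 and 0.108 TPM. The part of these other changes in the members' changes was not tested.

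**Figure D1:**
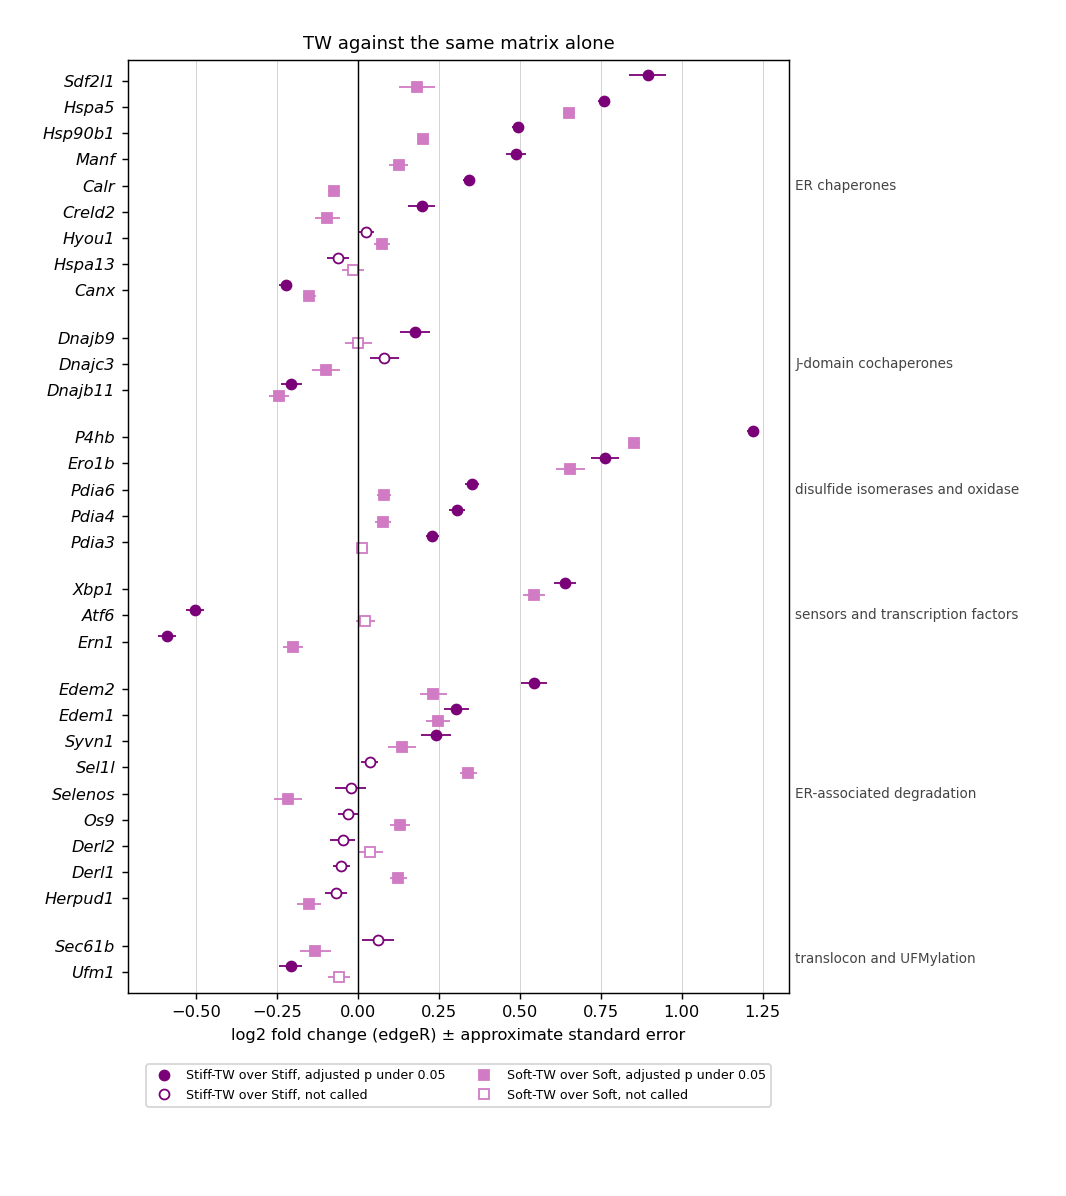
Log2 fold change (horizontal axis, with approximate standard error) of the 31 tested members in Stiff-TW over Stiff (circles) and Soft-TW over Soft (squares), grouped by role; filled symbols are called at an adjusted p under 0.05. P4hb at 1.22 and 0.85 and Hspa5 at 0.76 and 0.65 lie far to the right, and Sdf2l1, Calr and Atf6 differ most between the matrices.

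Fewer members were called with mito than with TW on either matrix, as were fewer of all genes. Of all genes 33.5% were called with mito and 69.6% with TW on the stiff matrix, and 26.7% and 56.9% on the soft matrix. With mito the sensor genes Ern1 and Atf6 fell on both matrices and Dnajb9 and P4hb rose. Few other members moved the same way on both. In Stiff+mito against Stiff, 5 members rose and 10 fell, where 33.5% of all genes were called, 15.6% higher and 17.8% lower, and 3 and 8 held in every alternative. In Soft+mito against Soft, 11 rose and 3 fell, where 26.7% of all genes were called, 14.8% higher and 11.9% lower. On the TPM scale 3 rose and 10 fell, with library totals 8 and 6, and in every alternative 3 and 3. The medians of the members were -0.0083 and 0.04 log2 units and those of all genes 0.0006 and 0.0073. The largest change of a member with mito was that of Ern1 on the soft matrix, at -0.38, and of the 8 rises in Soft+mito that were lost on the TPM scale the largest was that of Syvn1, at 0.18. The summed TPM of the fibroblast list was 2413 to 2504 in Stiff+mito and 2655 to 2717 in Soft+mito, and that of the macrophage genes was 40.1 to 42.4 in Stiff+mito and 48.1 to 52.7 in Soft+mito. In Soft+mito against Soft the fibroblast list gave 1 rise, that of Vim at 0.30, and 3 falls, those of Col1a2, Pdgfrb and Fn1, among 7 tested. The part of these changes in the members' changes was not tested either. Comparisons that use the same control libraries are not independent: those of mito and TW share Stiff or Soft with each other and with the comparison of the matrices.

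**Figure D2:**
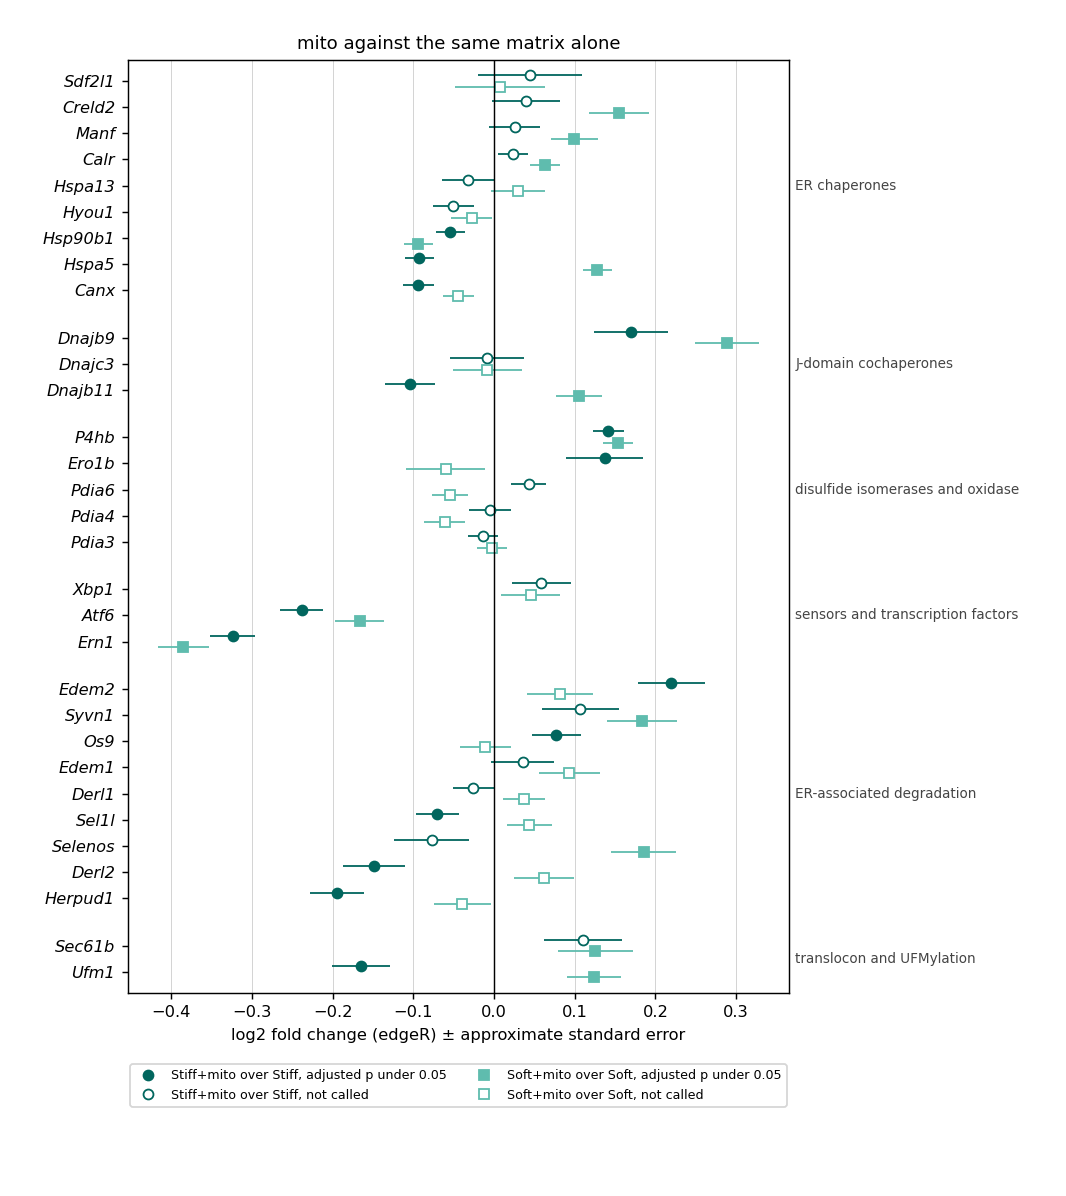
Log2 fold change (horizontal axis, with approximate standard error) of the 31 tested members in Stiff+mito over Stiff (circles) and Soft+mito over Soft (squares), grouped by role; filled symbols are called at an adjusted p under 0.05. Ern1 at -0.32 and -0.38 and Atf6 at -0.24 and -0.17 lie farthest to the left on both matrices.

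Ern1, which encodes the sensor IRE1, had 191, 185 and 193 CPM in Stiff libraries, against 126, 124 and 123 CPM in Soft libraries. With mito it had 154, 153 and 148 CPM on the stiff and 99.3, 93 and 93.5 CPM on the soft matrix, and with TW 127, 129 and 122 CPM on the stiff and 107, 108 and 110.1 CPM on the soft matrix. The stiff libraries were above the soft ones in each condition with no overlap, and mito and TW each gave lower values than the same matrix alone. The rise on the stiff matrix was 0.61 ± 0.028 log2 units without addition (edgeR adjusted p = 6.47e-38), 0.67 ± 0.031 with mito (edgeR adjusted p = 6.4e-39) and 0.22 ± 0.031 with TW (edgeR adjusted p = 1.72e-09). The change with mito was -0.32 ± 0.028 on the stiff (edgeR adjusted p = 1.28e-18) and -0.38 ± 0.032 on the soft matrix (edgeR adjusted p = 9.76e-20). With TW the change on the stiff matrix was -0.59 ± 0.029 (edgeR adjusted p = 5.8e-37), against -0.20 on the soft matrix. These 2 changes differed, with an interaction of -0.39 ± 0.042 (edgeR adjusted p = 1.35e-13).

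Atf6, the sensor that is cut in the Golgi to give a transcription factor, had 197, 198 and 198 CPM in Stiff libraries, against 120.0, 122 and 121 CPM in Soft libraries. With mito there were 171, 163 and 169 CPM on the stiff and 104, 110.5 and 109 CPM on the soft matrix, and with TW 143, 137 and 139 CPM on the stiff and 122, 121 and 125 CPM on the soft matrix. The order of the groups was that of Ern1 except that Soft-TW lay with Soft, and no stiff library overlapped a soft one of its condition. Atf6 rose by 0.71 ± 0.028 in Stiff against Soft (edgeR adjusted p = 3.14e-44) and by 0.64 ± 0.029 in Stiff+mito against Soft+mito (edgeR adjusted p = 4.41e-39), and by 0.18 with TW. The change with mito was -0.24 ± 0.027 on the stiff (edgeR adjusted p = 8.25e-13) and -0.17 ± 0.03 on the soft matrix (edgeR adjusted p = 6.04e-06). With TW it was -0.50 on the stiff matrix and 0.023 on the soft matrix, where the sign turned on the TPM scale, and the interaction was -0.53 ± 0.041 (edgeR adjusted p = 2.44e-21).

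**Figure D3:**
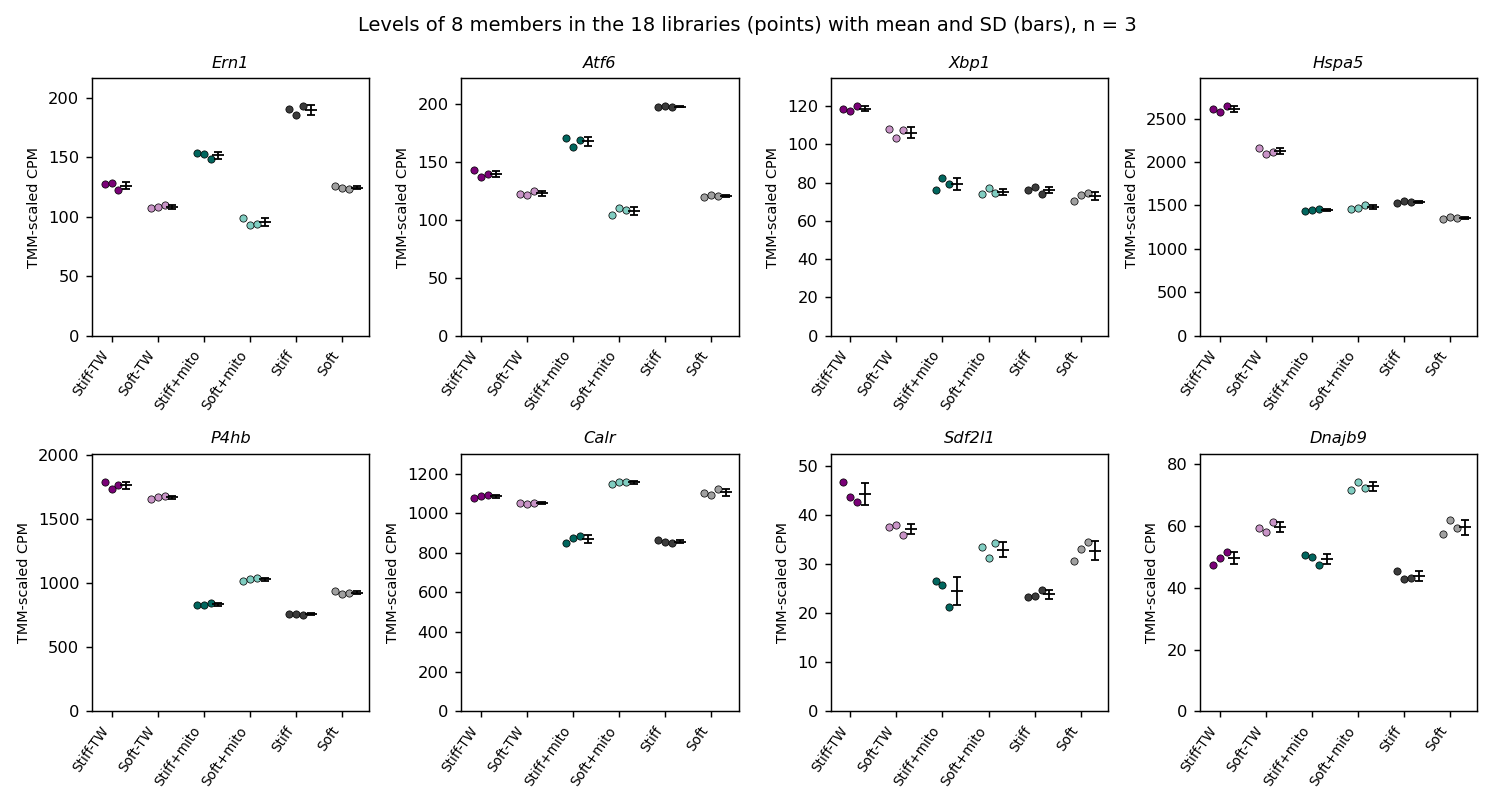
TMM-scaled CPM (vertical axes, from 0) of 8 members in the 18 libraries (points) of the 6 groups, with mean and SD of 3 libraries beside them. Ern1 and Atf6 were highest in Stiff, Hspa5, P4hb, Xbp1 and Sdf2l1 were highest in Stiff-TW, and Dnajb9 was highest in Soft+mito.

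Xbp1, the transcription factor gene whose mRNA IRE1 cuts, had 119, 117 and 120.1 CPM in Stiff-TW and 108, 103 and 108 CPM in Soft-TW, against 76.4, 77.8 and 74.3 CPM in Stiff and 70.5, 73.5 and 74.6 CPM in Soft. The libraries with mito had 76.2, 82.3 and 79.3 CPM on the stiff and 73.9, 77 and 74.7 CPM on the soft matrix, overlapping those without addition. Only the TW libraries stood apart. The rise with TW was 0.64 ± 0.034 on the stiff (edgeR adjusted p = 1.23e-33) and 0.54 ± 0.035 on the soft matrix (edgeR adjusted p = 1.91e-27), and the matrices differed with TW alone, by 0.16, among the 3 matrix comparisons.

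The table of transcripts also divides Xbp1 into its forms. It holds an unspliced form and a form shorter by 26 bases, and the spliced share is the part of the estimated counts of both that the authors' quantifier gave to the shorter one. It was 56.5, 57.9 and 61.8% in Stiff libraries, against 39.3, 37.9 and 40.9% in Soft libraries. With mito it was 51.3, 47.6 and 50.6% on the stiff and 35.5, 40.1 and 44.1% on the soft matrix. With TW it was 39.7, 34.6 and 36% on the stiff and 31, 32.6 and 29.8% on the soft matrix. The share was thus highest in Stiff (58.7% ± 2.77, SD, n = 3) and lowest in Soft-TW (31.1% ± 1.40). Stiff lay above soft in every condition without overlap. Ern1 was also highest in Stiff, but it was lowest in Soft+mito, where the share averaged 39.9%, against 39.4% in Soft.

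In an exact permutation test over the libraries within conditions, the share was 11.6 percentage points higher on the stiff matrix (two-sided p = 0.00025, the smallest that 8000 permutations can give, 0.00075 adjusted over 3 tests). With TW it was lower than on the same matrix alone by a difference of -15.1 points (exact permutation p = 0.005, the smallest of 400 permutations, adjusted 0.0075). With mito the difference was -4.17 points (exact permutation p = 0.09, adjusted 0.09), from 0.54 points on the soft and -8.87 points on the stiff matrix. Leaving out 1 library at a time, the exact permutation p for mito ran from 0.03 (without Soft+mito replicate 3, -5.22 points) to 0.225. Within single pairs of groups the difference between the matrices was 19.4 points without addition, 9.94 with mito and 5.65 with TW, and no pair of 3 libraries against 3 can give an exact p under 0.1. Whether these 3 differences differ from each other was not tested.

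The higher Xbp1 total of the TW libraries lay mostly in the unspliced form. The unspliced form averaged 75.0 ± 3.01 CPM in Stiff-TW and 73.2 ± 3.18 CPM in Soft-TW, against 31.4 ± 2.69 CPM in Stiff and 44.2 ± 1.46 CPM in Soft (SD, n = 3 each). The spliced form averaged 43.6 ± 3.25 CPM in Stiff-TW and 33.0 ± 0.861 CPM in Soft-TW, against 44.7 ± 1.42 CPM in Stiff and 28.7 ± 1.57 CPM in Soft. On the stiff matrix the spliced form thus differed between Stiff-TW and Stiff by less than the spread between libraries. Only fragments that cover the 26 bases tell the forms apart, and the split rests on the quantifier's estimate, which is named in no source used here.

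**Figure D4:**
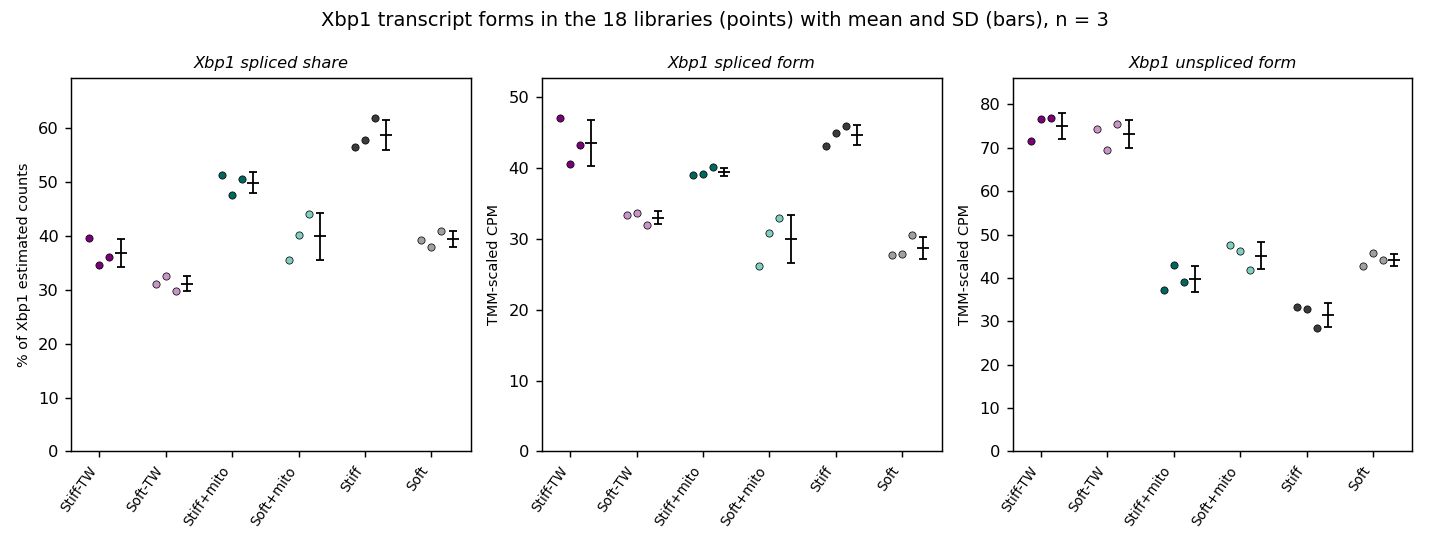
Spliced share of Xbp1 in % of its estimated counts (left), and TMM-scaled CPM of the spliced (middle) and unspliced form (right) in the 18 libraries (points), with mean and SD of 3 libraries beside them. The share is highest in Stiff at 58.7% and lowest in Soft-TW at 31.1%, and the unspliced form is highest in the TW groups.

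Among the 9 chaperone genes, TW gave 6 rises and 1 fall on the stiff matrix, where 69.6% of all genes were called, and these held in every alternative. On the soft matrix, where 56.9% were called, it gave 5 rises and 3 falls, of which 2 and 2 held. Hspa5, which encodes the ER HSP70 BiP and keeps the sensors inactive, had 2612, 2574 and 2644 CPM in Stiff-TW, against 1528, 1553 and 1541 CPM in Stiff. It had 2166, 2097 and 2110.0 CPM in Soft-TW, against 1339, 1362 and 1355 CPM in Soft. With mito it had 1432, 1451 and 1453 CPM on the stiff and 1458, 1471 and 1504 CPM on the soft matrix. All 6 TW libraries lay above the other 12. The rise with TW was 0.76 ± 0.018 on the stiff (edgeR adjusted p = 1.32e-65) and 0.65 ± 0.018 on the soft matrix (edgeR adjusted p = 9.41e-59). Between the matrices the difference was 0.30 ± 0.018 with TW (edgeR adjusted p = 8.26e-30) and 0.19 ± 0.018 without addition (edgeR adjusted p = 8.06e-17), and -0.032 with mito, which missed the threshold. With mito the change was -0.093 ± 0.018 on the stiff matrix (edgeR adjusted p = 1.22e-05). On the soft matrix it was 0.13 ± 0.018 (edgeR adjusted p = 4.8e-09), and the call was lost on the TPM scale. The interaction of mito and matrix, -0.22 ± 0.025 (edgeR adjusted p = 7.15e-12), held in every alternative.

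Hsp90b1, the ER HSP90 known as GRP94, had 2471, 2439.9 and 2520.3 CPM in Stiff-TW and 1987, 1966 and 1933 CPM in Soft-TW, against 1749, 1771 and 1753 CPM in Stiff and 1711, 1723 and 1682 CPM in Soft. The TW libraries were the highest on each matrix, and the stiff ones were the higher of them. It rose by 0.49 ± 0.018 on the stiff (edgeR adjusted p = 2.52e-48) and by 0.20 ± 0.018 on the soft matrix (edgeR adjusted p = 9.96e-19), and the interaction was 0.29 ± 0.025 (edgeR adjusted p = 8.96e-19). The matrices differed by 0.34 ± 0.018 with TW (edgeR adjusted p = 1.14e-33). Without addition the difference of 0.044 passed in edgeR and turned to -0.04 on the TPM scale. On the soft matrix Hsp90b1 fell with mito, at -0.094 ± 0.018 (edgeR adjusted p = 1.31e-05). On the stiff matrix it had -0.054, a call lost without Stiff replicate 2 (-0.049) or Stiff+mito replicate 1 (-0.04).

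Calr, the soluble lectin calreticulin, had 1078, 1087 and 1093 CPM in Stiff-TW, against 866, 854 and 849 CPM in Stiff. It had 1053, 1047 and 1053 CPM in Soft-TW, against 1102, 1091 and 1124 CPM in Soft. Stiff lay far below Soft, while Stiff-TW lay just above Soft-TW. On the log2 scale Calr on the stiff matrix fell by 0.37 ± 0.019 without addition (edgeR adjusted p = 3.96e-35) and fell by 0.41 ± 0.019 with mito (edgeR adjusted p = 4.67e-39). With TW it rose by 0.34 ± 0.019 on the stiff matrix (edgeR adjusted p = 4.47e-33) and fell by 0.073 on the soft matrix, with an interaction of 0.42 ± 0.026 (edgeR adjusted p = 3.02e-27).

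Sdf2l1, a partner of the ER HSP70 system, had 46.7, 43.6 and 42.5 CPM in Stiff-TW, against 23.2, 23.4 and 24.8 CPM in Stiff. In Soft-TW it had 37.5, 37.9 and 36 CPM, against 30.6, 33 and 34.6 CPM in Soft. The TW libraries lay above those of the same matrix alone, by a wide gap on the stiff and a narrow one on the soft matrix. Its rise of 0.90 on the stiff matrix was the second among the members after P4hb, against 0.18 on the soft matrix, a call lost on the TPM scale, and the interaction was 0.71 ± 0.08 log2 units. Manf, a secreted ER stress factor, had 0.49 with TW on the stiff and 0.13 on the soft matrix, the second a call lost on the TPM scale. Creld2, an ER-resident protein with a disulfide motif, had 0.20 on the stiff and -0.093 on the soft matrix, the second a call that did not hold in every alternative. Without addition the 3 genes were lower on the stiff matrix, at -0.46 for Sdf2l1, -0.23 for Manf and -0.33 for Creld2. With TW, Sdf2l1 and Manf were higher on the stiff matrix, at 0.25 and 0.14, and Creld2 had -0.041, which missed the threshold.

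Canx, the membrane-bound lectin calnexin that shares its substrates with calreticulin, went the other way with TW. It had 835, 816 and 861 CPM in Stiff-TW and 874, 848 and 834 CPM in Soft-TW, against 978, 983 and 969.7 CPM in Stiff and 959, 939 and 937 CPM in Soft. The TW libraries were the lower ones on both matrices, with changes of -0.22 on the stiff and -0.15 on the soft one. Hspa13, an HSP70-like protein also called Stch, was higher on the stiff matrix in all 3 conditions, by 0.21 without addition, 0.15 with mito and 0.16 with TW. It was called with neither mito nor TW. Hyou1, an HSP110-like exchange factor for BiP, stayed within 0.076 log2 units of 0 in all 7 pairs of groups, with 0.026 in Stiff-TW against Stiff, 0.076 in Soft-TW against Soft and 0.062 in Stiff against Soft. The last 2 of these passed in edgeR and changed sign on the TPM scale.

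The 3 genes for J-domain cochaperones, which drive the ATP cycle of BiP, were all lower on the stiff matrix without addition and with mito. Of all genes, 53.8% were called without addition, 24.7% lower, and 63.5% with mito, 30.8% lower. Dnajb9 (ERdj4), a target of spliced Xbp1 that restrains IRE1, had 45.6, 42.9 and 43.2 CPM in Stiff, against 57.4, 62.2 and 59.4 CPM in Soft. With mito it had 50.6, 50.2 and 47.4 CPM on the stiff and 71.7, 74.4 and 72.5 CPM on the soft matrix, and with TW 47.6, 49.7 and 51.5 CPM on the stiff and 59.6, 58.3 and 61.3 CPM on the soft matrix. No stiff library reached a soft one, and the mito libraries were above those of the same matrix alone. Its matrix differences were -0.44, -0.56 and -0.27 without addition, with mito and with TW. With mito it rose by 0.29 ± 0.039 on the soft matrix (edgeR adjusted p = 1.92e-09) and by 0.17 on the stiff matrix. The direction of Dnajb9 over the matrices was thus opposite to that of Ern1 and of the spliced share of Xbp1.

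Dnajb11 (ERdj3), a cochaperone that binds nascent proteins, fell with TW on both matrices, with -0.20 on the stiff and -0.24 on the soft one. Its difference between the matrices was -0.23 without addition, -0.44 ± 0.03 with mito (edgeR adjusted p = 1.16e-25) and -0.19 with TW. The change with mito was -0.10 on the stiff and 0.11 on the soft matrix, where the call was lost on the TPM scale, and the interaction of -0.21 ± 0.042 (edgeR adjusted p = 5.36e-05) held in every alternative. Dnajc3 (p58IPK), which also inhibits PERK, was lower on the stiff matrix, at -0.16 without addition and -0.16 with mito, and had 0.019 with TW, which missed the threshold.

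**Figure D5:**
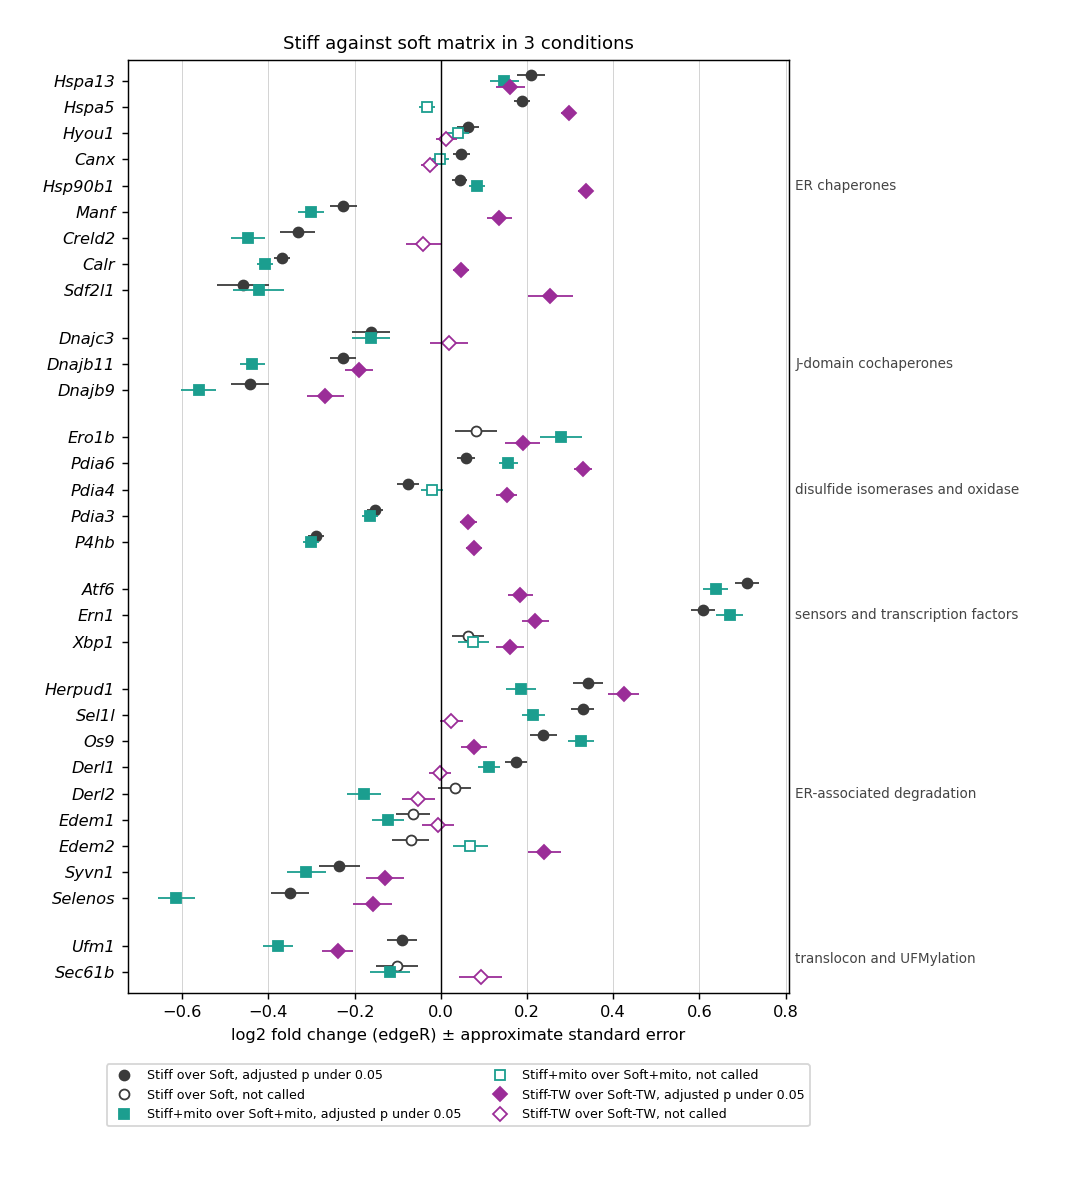
Log2 fold change (horizontal axis, with approximate standard error) of the 31 tested members on the stiff over the soft matrix without addition (circles), with mito (squares) and with TW (diamonds), grouped by role; filled symbols are called at an adjusted p under 0.05. Atf6 and Ern1 lie to the right in all 3, and Sdf2l1, Calr and P4hb lie to the left except with TW.

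The 5 genes of oxidative folding all rose with TW on the stiff matrix, where 69.6% of all genes were called, 35.5% higher. P4hb, the disulfide isomerase PDI and a subunit of collagen prolyl hydroxylase, had 1792, 1734 and 1765 CPM in Stiff-TW, against 761, 762 and 750.0 CPM in Stiff. It had 1659, 1672 and 1684 CPM in Soft-TW, against 940.4, 916 and 921 CPM in Soft, and 828, 830.1 and 848 CPM in Stiff+mito and 1019, 1031 and 1039 CPM in Soft+mito. The groups did not overlap, and the stiff libraries were the lower ones without addition and with mito but the higher ones with TW. The rise with TW was 1.22 ± 0.019 on the stiff (edgeR adjusted p = 2.58e-83) and 0.85 ± 0.018 on the soft matrix (edgeR adjusted p = 1.18e-68), and the interaction was 0.37 ± 0.026 (edgeR adjusted p = 7.54e-24). With mito it rose by 0.14 ± 0.019 on the stiff (edgeR adjusted p = 6.63e-10) and 0.15 ± 0.018 on the soft matrix (edgeR adjusted p = 2.22e-11). Between the matrices it had -0.29 ± 0.019 without addition (edgeR adjusted p = 6.11e-27) and -0.30 ± 0.019 with mito (edgeR adjusted p = 1.1e-28), against 0.077 with TW.

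Ero1b, an oxidase that restores disulfides in PDI, had 75.1, 77.7 and 76.9 CPM in Stiff-TW and 66.1, 67.2 and 68 CPM in Soft-TW, against 45.4, 49 and 40.9 CPM in Stiff and 44.3, 42 and 41.5 CPM in Soft. All TW libraries lay above the rest, with rises of 0.76 on the stiff and 0.66 ± 0.045 on the soft matrix (edgeR adjusted p = 1.51e-25). Its rise of 0.14 in Stiff+mito against Stiff was lost without Stiff replicate 3 (0.07) or Stiff+mito replicate 1 (0.10). Of the other isomerases, Pdia6 (P5), which acts on IRE1 and BiP clients, had 556, 549 and 569 CPM in Stiff-TW, against 439, 438 and 434 CPM in Stiff. With TW it rose on the stiff matrix by 0.35, as did Pdia4 (ERp72) by 0.31 and Pdia3 (ERp57, the partner of calreticulin and calnexin) by 0.23. On the soft matrix these had 0.081, 0.077 and 0.014, and each of the 3 turned negative on the TPM scale. The interactions were 0.27 ± 0.03 for Pdia6 (edgeR adjusted p = 5.64e-13), 0.23 for Pdia4 and 0.22 for Pdia3, all in the direction of a larger rise on the stiff matrix. Pdia6 differed between the matrices with TW by 0.33 ± 0.021 (edgeR adjusted p = 5.88e-27).

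The 9 tested genes of ER-associated degradation, which returns misfolded proteins to the cytosol for the proteasome, gave 3 rises and 0 falls with TW on the stiff matrix, where 69.6% of all genes were called, and all 3 held in every alternative. In Soft-TW against Soft, where 56.9% were called, they gave 6 rises and 2 falls, of which 3 and 2 held. In Stiff against Soft, where 53.8% were called, they gave 4 rises and 2 falls, all of which held. Edem1 and Edem2, which trim mannose from misfolded glycoproteins, rose with TW, Edem1 by 0.30 on the stiff and 0.25 on the soft matrix and Edem2 by 0.54 and 0.23. Edem2 also rose with mito on the stiff matrix, by 0.22 ± 0.042 (edgeR adjusted p = 8.52e-06), and had 0.081 on the soft matrix, which missed the threshold. Syvn1, the ubiquitin ligase HRD1, rose with TW on the stiff matrix by 0.24 and was lower on the stiff matrix without addition, at -0.24. On the soft matrix its value with TW was 0.14, a call lost on the TPM scale.

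Sel1l, the adaptor that holds HRD1, had 171, 180.1 and 179 CPM in Stiff, against 145, 139 and 139 CPM in Soft. With TW it had 181, 181 and 183 CPM on the stiff and 179.9, 180.0 and 176 CPM on the soft matrix. Among these groups Soft was the lowest, and Soft-TW lay within or beside the range of Stiff. Sel1l was also higher in Stiff+mito than in Soft+mito, in every alternative. Sel1l was higher by 0.33 ± 0.027 in Stiff against Soft (edgeR adjusted p = 4.84e-20) and by 0.34 ± 0.027 in Soft-TW against Soft (edgeR adjusted p = 3.59e-21), while it had 0.037 in Stiff-TW against Stiff and an interaction of -0.30. Os9, a lectin that hands glycoproteins to this complex, was likewise higher on the stiff matrix, by 0.24 without addition and 0.33 with mito. Derl1, a derlin of the export channel, was higher by 0.17 and 0.11. With TW neither Os9 nor Derl1 was called between the matrices on both the edgeR and the TPM scale. Derl2, a relative of Derl1, was lower in Stiff+mito than in Soft+mito, at -0.18, and had 0.032 in Stiff against Soft, which missed the threshold.

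Herpud1, which organises the ligase complex, had 109.6, 104 and 108 CPM in Stiff, against 83.4, 83.8 and 86.6 CPM in Soft, and 106, 104 and 97.6 CPM in Stiff-TW, against 74.7, 79.1 and 74.8 CPM in Soft-TW. The stiff libraries were higher with no overlap. The difference was 0.34 without addition, 0.19 with mito and 0.42 ± 0.036 with TW (edgeR adjusted p = 9.07e-20). It fell by 0.19 ± 0.034 in Stiff+mito against Stiff (edgeR adjusted p = 1.29e-06) and had -0.039 in Soft+mito against Soft. Selenos, a selenoprotein that ties the ATPase p97 to the export channel, had 42.1, 41.5 and 42.5 CPM in Stiff+mito, against 62.6, 64 and 66.3 CPM in Soft+mito. The soft libraries were the higher ones throughout, and Soft+mito the highest of all. The difference of -0.61 ± 0.043 (edgeR adjusted p = 7.69e-25) was the largest negative one of any member between the matrices, beside -0.35 without addition and -0.16 with TW. Its interaction of mito and matrix was -0.26 ± 0.062 (edgeR adjusted p = 0.000575).

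Of the last pair of members, Sec61b, a small subunit of the translocon through which proteins enter the ER, had -0.13 in Soft-TW against Soft and 0.13 in Soft+mito against Soft. Both passed in edgeR, and neither held in every alternative. Ufm1, the ubiquitin-like modifier that is joined to ribosomes stalled at the translocon, had 81.7, 80.8 and 76.9 CPM in Stiff+mito, against 98.9, 107 and 105 CPM in Soft+mito. It had 88.9, 90.1 and 89.4 CPM in Stiff, against 94.3, 99.4 and 91.7 CPM in Soft. The stiff libraries were the lower ones, with the wider gap under mito. The differences were -0.38 with mito and -0.24 ± 0.036 with TW (edgeR adjusted p = 1.25e-08). Without addition it was -0.089, a call lost without Soft replicate 2 (-0.054), Stiff replicate 1 (-0.083) or Stiff replicate 3 (-0.089). With mito Ufm1 fell by 0.17 on the stiff matrix and had 0.12 on the soft matrix, and the interaction was -0.29 ± 0.049 (edgeR adjusted p = 1.64e-06).

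The interaction tests asked whether a change differed between the matrices, as the change on the stiff minus that on the soft matrix. For TW, 15 members had a positive and 7 a negative interaction, where 36.1% of all genes tested were called, 16.4% higher and 19.7% lower. On the TPM scale these were 17 and 4, and in every alternative 12 and 4. The 12 were Calr, Creld2, Edem2, Hsp90b1, Hspa5, Manf, P4hb, Pdia3, Pdia4, Pdia6, Sdf2l1 and Selenos, and the 4 were Atf6, Derl1, Ern1 and Sel1l. Most of the 12 are chaperones and isomerases, with the more positive change with TW on the stiff matrix. The 4 include the sensor genes Atf6 and Ern1, with the more negative change there. Eif2ak3, which encodes the sensor PERK and is not a member, had 0.68 with TW on the stiff and 0.27 on the soft matrix. For mito, 2 members had a positive and 7 a negative interaction, where 23.6% of all genes were called, 10.4% higher and 13.1% lower. On the TPM scale these were 8 and 4, with library totals 5 and 6, and in every alternative 0 and 4, namely Dnajb11, Hspa5, Selenos and Ufm1.

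Set by promoter, the counts stand beside 69.6% of all genes called in Stiff-TW against Stiff (35.5% higher, 34.1% lower), 56.9% in Soft-TW against Soft and 53.8% in Stiff against Soft. Of the 9 tested members with an ERSE match 7 rose and 1 fell in Stiff-TW against Stiff (median 0.34). Of the 17 tested members without an ERSE match, among them Dnajb11 and Herpud1 with an ERSE-II match, 8 rose and 3 fell (median 0.06). All of these calls held in every alternative. In Soft-TW against Soft, 5 rose and 4 fell with a match (median 0.08), against 8 and 5 without (median 0.04), of which 3 and 2 held with a match and 5 and 4 without. In Stiff against Soft, 4 rose and 4 fell with a match and 4 rose and 8 fell without, of which 1 and 4 held with a match and 4 and 6 without. The highest change with TW on each matrix, that of P4hb, belonged to a gene with no match in the window searched. Hsp90b1 has 2 matches and rose, while Canx has 1 match and fell. The sets were not tested against each other.

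Other genes of these pathways were read from lists that hold no member. In the list of the PERK and ATF4 arm, which controls translation and amino acid supply, 15 of 17 tested genes rose and 0 fell in Stiff against Soft, with a median of 0.42 where that of all genes was 0.015 and 53.8% of all genes were called. In Stiff-TW against Stiff, where 69.6% of all genes were called, 2 rose and 14 fell (median -0.47). In Soft-TW against Soft, where 56.9% were called, 7 rose and 8 fell (median 0.021). Of the 17, 15 had a negative interaction of TW with the matrix, where 36.1% of all genes were called, 19.7% lower. Trib3, a pseudokinase induced by Atf4 and Ddit3, had 1.34 ± 0.028 in Stiff against Soft (edgeR adjusted p = 9.84e-70), and Slc7a11, the cystine transporter, had -1.52 ± 0.023 in Stiff-TW against Stiff (edgeR adjusted p = 3.91e-83). With mito 1 rose and 13 fell on the stiff matrix (median -0.24), where 33.5% of all genes were called. On the soft matrix, where 26.7% were called, 4 rose and 10 fell (median -0.11).

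Eif2ak3, which encodes PERK itself, had 0.68 in Stiff-TW against Stiff and 0.27 in Soft-TW against Soft. Between the matrices it had -0.24 without addition, where Atf6 and Ern1 rose, -0.11 with mito, which missed the threshold, and 0.17 with TW, the direction of Atf6 and Ern1. Atf4 had 0.36 in Stiff against Soft and -0.44 and -0.24 with TW on the stiff and the soft matrix. Ddit3, the proapoptotic factor CHOP, had 0.42 in Stiff against Soft, 0.42 in Stiff-TW against Stiff and 0.54 in Soft-TW against Soft, and fell with mito, with -0.90 on the stiff and -0.35 on the soft matrix.

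Among 16 tested oxidoreductase genes beside the members, 10 rose and 3 fell in Stiff-TW against Stiff, where 69.6% of all genes were called. In Soft-TW against Soft, where 56.9% were called, 9 rose and 2 fell. Their list holds the largest change of any gene in these lists, that of Ero1a. Ero1a, the paralog of Ero1b that is induced by low oxygen, had 3993, 3965 and 4056 CPM in Stiff-TW and 4464, 4429.5 and 4390.0 CPM in Soft-TW, against 864, 876 and 873 CPM in Stiff and 592, 585 and 564 CPM in Soft. The TW libraries were several times the others. The rise was 2.20 ± 0.018 on the stiff (edgeR adjusted p = 7.62e-109) and 2.93 ± 0.019 on the soft matrix (edgeR adjusted p = 3.66e-120). P4ha1 and P4ha2, the catalytic subunits that join P4hb in collagen prolyl hydroxylase, rose by 1.59 and 2.00 in Stiff-TW against Stiff and by 1.32 and 1.85 in Soft-TW against Soft.

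The other lists gave mixed counts, beside 69.6% of all genes called in Stiff-TW against Stiff (35.5% higher, 34.1% lower). In Soft-TW against Soft 56.9% of all genes were called, and in Stiff+mito against Soft+mito 63.5% (32.7% higher, 30.8% lower). Among 24 further chaperones and cofactors 12 rose and 5 fell in Stiff-TW against Stiff and 11 rose and 4 fell in Soft-TW against Soft, with the KDEL receptor Kdelr3, which returns chaperones to the ER, at 0.72 and 0.61. Of 23 further degradation genes 2 rose and 12 fell in Stiff-TW against Stiff, among them the ATPase gene Vcp (p97) at -0.27, and 3 rose and 14 fell in Stiff+mito against Soft+mito. For the 26 genes of N-glycosylation these counts were 9 and 10 in Stiff-TW against Stiff, for the 24 of the translocon and signal peptidase 10 and 8, for the 19 of COPII export 6 and 4, and for the 13 of UFMylation and ER-phagy 7 and 3. The 9 other genes of sensors and their processing gave 3 and 3.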

How the data were processed

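Per the labels' protocols, total RNA was selected for poly(A) and sequenced from strand-specific libraries as paired ends. Build mm10 is per the submitters' processing notes, while no aligner, quantifier or annotation is named (not given in the sources used here). Deposited by the authors, a gene table and a transcript table hold estimated counts (expected counts, 10.91% of gene values not whole at a tolerance of 0.001) and TPM. A further 80 columns of each were not used. Library totals ran from 16054637 to 16887244. Libraries were grouped by their labels, and replicates were compared (correlation of at least 0.9978, chi-square per degree of freedom 1.19 to 2.16) and none was taken as a repeat of another.

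After rounding of the estimated counts, edgeR 4.0.16 (R 4.3.3) was run (filterByExpr, TMM factors 0.968 to 1.03, 1 quasi-likelihood model of 18 libraries, robust), with two-sided tests, with Benjamini-Hochberg adjustment over 12245 genes and a threshold of 0.05, for 9 comparisons. The script was tested on simulated data. Alternatives were DESeq2 1.42.0, its size factors in edgeR, library totals, no filter, only the groups compared, a replicate block, each library left out, and, chosen after seeing the data, limma 3.58.1 on the deposited TPM with a pseudocount of 1. The Xbp1 share used exact permutation tests within strata. Promoters were searched with Python 3.11.15.

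The members and gene lists were chosen with earlier results of these data known. All members are named. Full statistics are given for up to 6 members per comparison with the smallest adjusted p, and other genes are the 3 with the smallest adjusted p of a list, besides Eif2ak3, Atf4, Ddit3 and Ero1a.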

Additional observations from a re-analysis of the deposited data

Results flagged for a closer look

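For 31 results an interaction test (edgeR, adjusted p under 0.05) found that the change with mito or TW differed between the stiff and the soft matrix. Values are log2 units, the change on the stiff minus that on the soft matrix, and 23.6% of all genes passed this test for mito and 36.1% for TW. For mito they were -0.2208 for Hspa5, -0.2098 for Dnajb11, 0.0979 for Pdia6, 0.1971 for Ero1b, -0.1555 for Herpud1, -0.2103 for Derl2, -0.1142 for Sel1l, -0.2628 for Selenos and -0.2894 for Ufm1. Those of Hspa5, Dnajb11, Selenos and Ufm1 held in every alternative.

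For TW the chaperone genes gave 0.1086 for Hspa5, 0.2925 for Hsp90b1, 0.4166 for Calr, -0.0737 for Canx, 0.7134 for Sdf2l1, 0.3624 for Manf and 0.2909 for Creld2. The cochaperone and isomerase genes gave 0.1746 for Dnajb9, 0.18 for Dnajc3, 0.2167 for Pdia3, 0.2293 for Pdia4, 0.2713 for Pdia6 and 0.3669 for P4hb. The sensor genes gave -0.5251 for Atf6 and -0.3892 for Ern1. The degradation genes gave 0.31 for Edem2, -0.176 for Derl1, -0.305 for Sel1l, 0.1924 for Selenos and -0.1607 for Os9. Sec61b gave 0.1943 and Ufm1 gave -0.15.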

How the results depend on the processing

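The counts of members called kept within 1.5 times the reported count under every alternative. Between replicate numbers the deviations of libraries correlated from -0.1082 to 0.1012, so the numbers were not taken to pair libraries. With the replicate number as a block, 16 members were called in Soft+mito against Soft (12 rose, 4 fell) in place of 14, and the other 8 counts did not move. Scaling moved directions most. With limma on log2(TPM + 1), chosen after seeing the data, these signs turned: in Stiff against Soft Hsp90b1 -0.0406, Hyou1 -0.0262, Canx -0.0424 and Pdia6 -0.021; in Soft+mito against Soft Calr -0.0312; in Soft-TW against Soft Hyou1 -0.035, Dnajb9 -0.104, Pdia3 -0.0959, Pdia4 -0.0323, Pdia6 -0.0277 and Atf6 -0.086; in Stiff-TW against Stiff Sec61b -0.1213; and in the interaction of mito Pdia3 0.0807 and P4hb 0.08. With library totals Pdia3 in Soft-TW against Soft turned to -0.0413. The cause was not tested. Of all genes called in Soft+mito against Soft, 55.5% were higher with TMM, 38.29% with library totals and 12.53% on the TPM scale. In Stiff against Soft these shares were 54.1%, 44.05% and 35.27%, in Soft-TW against Soft 50.8%, 38.58% and 28.8%, and in the interaction of mito 44.25%, 58.07% and 79.53%. In the interaction of TW 45.33% were higher with TMM and 62.15% on the TPM scale. Leaving out 1 library at a time, the difference in spliced share ran from 10.914 to 12.3492 points for the matrix. For TW it ran from -15.8304 to -14.3296 points. For mito it ran from -5.2197 to -3.0669 points, with an exact permutation p from 0.03 (without Soft+mito replicate 3) to 0.225. With 3 libraries per group from a source that is not given, small adjusted p-values reflect the close replicates of these libraries.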
